A study of Homo sapiens with 12 samples.

Results

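The levels of 10 genes of interleukin-7 receptor and JAK-STAT5 signalling were compared between HPB-ALL and KOPTK1, a pair of established human T-cell acute lymphoblastic leukemia (T-ALL) lines. The genes were taken by symbol from the 58288 genes that each of the 2 deposited tables lists, and each of the 10 was matched to 1 Ensembl identifier: the receptor chains IL7R, IL2RG and IL2RA, the kinases JAK1 and JAK3, the transcription factors STAT5A and STAT5B, the inhibitors SOCS1 and CISH, and the target kinase PIM1. RNA-Seq had been performed on 3 control libraries (shGFP) and 3 libraries with SHQ1 depleted (shSHQ1) in each line, 12 libraries in all. The shRNAs were delivered with pLKO.1 lentiviruses, and cells of all 4 groups were selected in puromycin at 2 μg/mL for 48 h and rRNA was removed from their RNA, so that infection and drug selection are shared by the controls. The labels do not say whether the replicates were separate infections.

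Interleukin-7 binds a receptor made of the IL7R chain and the common gamma chain IL2RG. JAK1 is bound to the IL7R chain and JAK3 to the common gamma chain, and once brought together they phosphorylate STAT5A and STAT5B, which enter the nucleus and switch on genes such as CISH, SOCS1, PIM1 and BCL2. Thymocytes depend on this signal for survival at their early stages, and activating mutations of IL7R, JAK1, JAK3 and STAT5B recur in T-ALL.

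STAT5 proteins bind DNA at the palindrome TTCNNNGAA, which reads the same on both strands. It was looked for in the RefSeq promoter windows (GRCh38.p14), which reach from 250 bases before a transcript start to 50 bases after it. All 10 genes had at least 1 window, 14 windows in all, and CISH alone held a match, with 4. Among all 35116 windows, 7.66% held at least 1 match and 7 windows, which belong to 6 gene symbols, held 4, the highest number. Another of the 7 belongs to BCL6, a repressor that STAT5 is known to regulate and 1 of 38 further genes of the pathway described below, of which 27 had a window and 3 a match. The CISH window is chr3:50611725-50612024 on the minus strand and the BCL6 window chr3:187745419-187745718 on the minus strand. Both are shown 5′ to 3′ because they hold more copies of the motif than the window of any other gene described here, with each match in capitals:
CISH: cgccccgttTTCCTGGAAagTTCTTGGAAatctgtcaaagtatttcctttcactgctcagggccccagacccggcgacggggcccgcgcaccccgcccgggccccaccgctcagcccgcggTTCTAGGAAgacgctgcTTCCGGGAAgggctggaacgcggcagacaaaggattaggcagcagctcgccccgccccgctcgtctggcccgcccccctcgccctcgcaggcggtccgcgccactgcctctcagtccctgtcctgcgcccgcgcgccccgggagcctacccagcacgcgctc
BCL6: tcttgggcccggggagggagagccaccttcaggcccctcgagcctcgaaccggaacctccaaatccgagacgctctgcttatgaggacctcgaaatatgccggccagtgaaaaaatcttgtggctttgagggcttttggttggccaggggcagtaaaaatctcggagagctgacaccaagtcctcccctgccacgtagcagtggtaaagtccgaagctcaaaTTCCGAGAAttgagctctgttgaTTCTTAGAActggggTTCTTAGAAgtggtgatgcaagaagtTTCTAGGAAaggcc

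In CISH the first bases of the matches stood at -241, -230, -129 and -112 from the start, as a pair of closely spaced sites on either side of a gap. In BCL6 they stood at -28, -5, 11 and 37. A match is a description of the sequence, and the absence of one says only that these letters are not within the window.

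For each gene the tables give an average log2 CPM (reads of the gene relative to all counted reads of a library) over the 6 libraries of a line, controls and SHQ1-depleted cells together, and this was converted to a mean RPKM (CPM per kilobase of exon). Columns of single libraries carry numbers as headings, which could not be matched to a sample, and were not used. The SHQ1 shRNA and control groups were therefore not compared, no value has an SD, and no difference was tested. The lowest value of each table, shared by 13164 genes in HPB-ALL and 12035 in KOPTK1, was 0.0488 and 0.0669 CPM. If this floor is the default prior of 2 reads that the authors' software adds, 1 read is worth 0.0244 CPM in HPB-ALL and 0.0334 CPM in KOPTK1, and the approximate numbers of reads given below rest on that assumption.

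Most T-lineage genes were detected in both lines: 14 of 16 markers had a mean RPKM of 1 or more in HPB-ALL and 15 of 16 in KOPTK1, with summed levels of 1216 and 1404, and CD3D stood at 295 and 301. CD4 was below 1 in both lines, at 0.939 and 0.631. CD8A (0.968 and 5.47), RAG1 (2.13 and 9.55) and CD2 (13.7 and 47.8) were 5.65-fold, 4.48-fold and 3.49-fold higher in KOPTK1. This is the same direction as STAT5A and JAK3 below. Of the 15 T-lineage markers with a mean RPKM of 1 or more in either line, the other 12 differed by less than 2-fold. The median log2 ratio of KOPTK1 over HPB-ALL was 0.15 over the 15. Of 6 B-cell markers, 2 reached 1 in each line, with summed levels of 45.4 and 18.2, most of it from CD79A (mean RPKM 43.3 and 16.1). PAX5 (0.0198 and 0.0191) and MS4A1 (0.0462 and 0.0887) were near 0. Summed mean RPKM was 1.54 and 1.98 over 6 myeloid markers, 0.456 and 0.615 over 3 NK markers, 0.268 and 0.447 over 2 erythroid markers and 1.81 and 1.74 over 4 stromal and epithelial markers. The part of these genes in the levels below was not tested, and in such bulk samples fewer cells of a kind and less RNA per cell cannot be told apart. SHQ1 itself had a mean RPKM of 59.5 in HPB-ALL and 43.3 in KOPTK1 over both groups, which does not check the knockdown. LMO2, an oncogene activated in KOPTK1, stood at 1.48 in KOPTK1, about 105 reads per library, and 0.175 in HPB-ALL. That KOPTK1 level is low, above only 11.3% of the genes with a mean RPKM of 1 or more there. It does not settle the KOPTK1 label. TLX3, an oncogene that HPB-ALL is known to express, corresponded to about 0.333 reads per library in the table labelled HPB-ALL. The TLX3 level thus goes against that label, and HPB-ALL stands here for the libraries labelled so, in every ratio between the lines.

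The lines differed unevenly. Of 25479 genes with a mean RPKM of 1 or more in at least 1 table, 723 were 4-fold or more higher in KOPTK1 and 5 were 4-fold or more higher in HPB-ALL. At 8-fold the counts were 364 and 0, and the largest ratios were 71.4-fold and 5.42-fold. The 2 tables were normalized separately by the authors, so every ratio between them is a description. No gene that met the minimum was more than 5.42-fold higher in HPB-ALL, so ratios in that direction, that of IL7R among them, lie within a narrow range. Whether the KOPTK1 libraries also hold RNA of other cells, HPB-ALL included, and how far the asymmetry entered the ratios of single genes, was not tested.

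The largest ratios between the lines among these genes were those of STAT5A and JAK3, both higher in KOPTK1. STAT5A was 10.2-fold higher in KOPTK1, JAK3 4.34-fold, SOCS1 3.12-fold and STAT5B 2.05-fold, and IL7R was 2.00-fold higher in HPB-ALL. PIM1, JAK1, CISH and IL2RG differed by less than 2-fold. With IL2RA, which was barely detected, 5 of the 10 genes were at least 2-fold higher in KOPTK1, where 12.1% of all 58288 genes were, and 1 was at least 2-fold higher in HPB-ALL, where 2.38% were. Among the 9 genes with a mean RPKM of 1 or more in either line, the counts were 4 and 1, beside 8.1% and 3.81% of the 25479 genes. The median log2 ratio of KOPTK1 over HPB-ALL was 0.89 over these 9 genes and 0.05 over the 25479. Genes at the floor in both lines cannot reach 2-fold and are counted in the 58288. The floor was higher in KOPTK1 (0.0669 CPM) than in HPB-ALL (0.0488 CPM). In KOPTK1 the floor alone can bring a very short gene to a mean RPKM of 1.

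**Figure D1:**
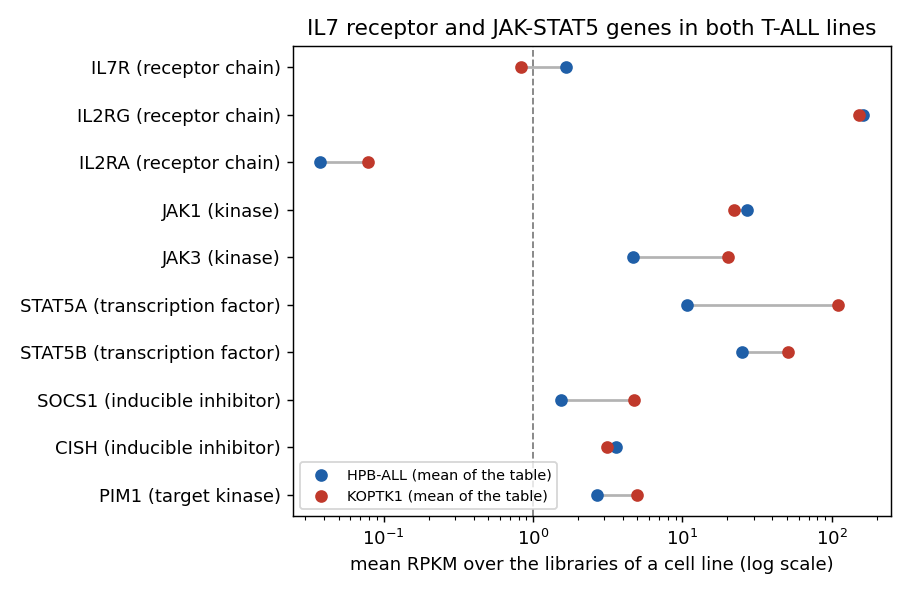
Mean RPKM (log scale) of each of the 10 genes over the 6 libraries of HPB-ALL (blue) and of KOPTK1 (red), with the role of each gene in parentheses and a dashed line at 1. The points of IL2RG and JAK1 lie close together, those of STAT5A (10.7 and 109) lie farthest apart, and IL2RA lies far below 1 in both lines.

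The receptor chains spanned the whole range of levels. IL2RG (chromosome X, 71107404 to 71111631), the chain shared by the receptors for interleukins 2, 4, 7, 9, 15 and 21, had a mean RPKM of 162 in HPB-ALL and 152 in KOPTK1. Per exon length it was the highest of the 10 genes in both lines, whereas by CPM, without division by length, it stood in KOPTK1 (233 CPM) behind STAT5A (520) and STAT5B (261). Per length it stood above 99.2% and 99.1% of the genes with a mean RPKM of 1 or more. IL7R (chromosome 5, 35856849 to 35879603), the chain specific to interleukin-7 and TSLP, had a mean RPKM of 1.65 in HPB-ALL and 0.825 in KOPTK1. These levels correspond to about 330 and 119 reads per library, so the transcript was present in both tables but low. Per length, IL2RG exceeded IL7R 98.4-fold in HPB-ALL and 184-fold in KOPTK1. The IL7R ratio was at the edge of the 2-fold criterion, with 968 of the 25479 genes further towards HPB-ALL. IL2RA (chromosome 10, 6010689 to 6062325), the inducible chain of the high-affinity interleukin-2 receptor also known as CD25, had a mean RPKM of 0.0378 and 0.0780. That is about 2.92 and 5.41 reads per library, and a ratio between such counts is not interpreted.

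The receptor-bound kinases differed in how evenly they were expressed. JAK1 (chromosome 1, 64833229 to 64966504), which pairs with many cytokine receptors, had a mean RPKM of 26.9 in HPB-ALL and 22.1 in KOPTK1, a log2 ratio of KOPTK1 over HPB-ALL of -0.28. JAK3 (chromosome 19, 17824786 to 17848032), which associates with the common gamma chain only, had a mean RPKM of 4.66 in HPB-ALL and 20.2 in KOPTK1, a log2 ratio of 2.12. A larger ratio was found for 661 of the 25479 genes. Within HPB-ALL the JAK3 level was 0.173 of the JAK1 level, and within KOPTK1 it was 0.915. JAK3 thus made up 14.7% of the summed JAK1 and JAK3 level in HPB-ALL and 47.8% in KOPTK1, a comparison within each table that needs no scaling between them. Relative to IL2RG, the chain it binds, the JAK3 level was 0.0287 in HPB-ALL and 0.133 in KOPTK1.

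STAT5A and STAT5B stood in opposite order in the 2 lines. STAT5A (chromosome 17, 42287547 to 42311943) had a mean RPKM of 10.7 in HPB-ALL and 109 in KOPTK1, a log2 ratio of 3.35 that 302 of the 25479 genes exceeded. STAT5B (chromosome 17, 42199168 to 42276406) had a mean RPKM of 25.0 and 51.2, a log2 ratio of 1.04. STAT5B was 2.32-fold higher than STAT5A in HPB-ALL, whereas STAT5A was 2.13-fold higher than STAT5B in KOPTK1. The share of STAT5A in the summed level of both genes was 30.1% in HPB-ALL and 68.1% in KOPTK1, and the sum was 35.7 and 160, or 4.49-fold higher in KOPTK1. The STAT5B ratio fell under 2-fold after rescaling to TPM, with a log2 ratio of 0.98.

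The genes lie next to each other in opposite orientation, 11140 bases apart, and encode closely related proteins, so the split of reads between them is uncertain. Windows of 150 bases, the length of a read, were taken from the main transcript of each gene in GENCODE release 44. Of the STAT5A windows, 280 of 3621 (7.73%) occurred without mismatch among STAT5B transcript sequences. Of the STAT5B windows, 5.68% occurred among STAT5A transcript sequences. With 50-base windows the shares were 13.6% and 10.1%. How the counting treated such reads is not given in the sources used here.

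CISH, SOCS1 and PIM1, which STAT5 is known to induce, were low in both lines and did not share a direction. CISH (chromosome 3, 50606496 to 50611831), an SH2-domain inhibitor of the receptor complex and the gene with the 4 matches above, had a mean RPKM of 3.56 in HPB-ALL and 3.11 in KOPTK1, a log2 ratio of -0.20. SOCS1 (chromosome 16, 11254405 to 11256179), which inhibits JAK kinases directly, had a mean RPKM of 1.53 and 4.77, a log2 ratio of 1.64. These are about 74.7 and 173 reads per library, the fewest of any of the genes above the minimum in HPB-ALL. PIM1 (chromosome 6, 37170203 to 37175426), a serine/threonine kinase that promotes survival, stood at 2.68 and 4.96, a log2 ratio of 0.89. CISH thus exceeded SOCS1 2.34-fold in HPB-ALL, and SOCS1 exceeded CISH 1.53-fold in KOPTK1. SOCS1 lies within the span of RMI2 on the opposite strand, whose mean RPKM was 3.61 and 8.27, and JAK1 overlaps RAVER2 (14.0 and 14.7) in the same manner. STAT5B overlaps 4 genes without a symbol, of which ENSG00000236194 (mean RPKM 8.36 and 16.6) and ENSG00000278829 (11.1 and 23.5) lie on its own strand, so that strand would not separate their reads. Whether strand was used in counting is not given in the sources used here, and without it reads from bases that genes on opposite strands share cannot be told apart either.

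The order of the 10 genes by mean RPKM in HPB-ALL was IL2RG, JAK1, STAT5B, STAT5A, JAK3, CISH, PIM1, IL7R, SOCS1 and IL2RA. In KOPTK1 it was IL2RG, STAT5A, STAT5B, JAK1, JAK3, PIM1, SOCS1, CISH, IL7R and IL2RA. Which neighbours in these orders differ beyond the spread between libraries is not known here, since no library values were used, and close values such as 26.9 for JAK1 and 25.0 for STAT5B in HPB-ALL, or 22.1 for JAK1 and 20.2 for JAK3 in KOPTK1, are not ranked apart here.

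A list of 38 further genes of common gamma chain signalling was read in the same way. Of these, 30 had a mean RPKM of 1 or more in HPB-ALL and 30 in KOPTK1, 27 of them in both. Among the 33 above the minimum in at least 1 line, 5 were 2-fold or more higher in KOPTK1, 2 were 2-fold or more higher in HPB-ALL and 26 differed by less, beside 8.1% and 3.81% of all genes that met the same minimum. Their median log2 ratio was 0.05, as over all genes.

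Ligand genes were low, 3 of 7 being below 1 in both lines. Interleukin-7 itself (IL7) had a mean RPKM of 0.182 in HPB-ALL and 0.0754 in KOPTK1, about 14.0 and 2.83 reads per library. IL4 was the highest ligand, at 1.62 and 5.60. IL2 stood at 0.138 and 1.02, the only ratio of at least 4-fold among the 38 genes, resting on about 3.83 and 29.2 reads per library. IL15 (0.806 and 1.86) and TSLP (1.25 and 0.698) crossed the minimum in opposite directions, and IL21 (0.0820 and 0.0930) was at or near the floor.

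Of 6 other receptor chains, IL9R was the highest, at a mean RPKM of 11.7 in HPB-ALL and 9.80 in KOPTK1. It is listed on both sex chromosomes and has pseudogene copies, so its counts are uncertain. IL2RB, the signalling chain that interleukins 2 and 15 use beside IL2RG, stood at 1.46 in HPB-ALL and was 1.09-fold higher in KOPTK1, IL15RA at 0.840 and 1.11, and CRLF2, the partner of IL7R in the TSLP receptor, at 0.110 and 0.366. None of the 4 chains above the minimum differed by 2-fold.

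The other kinases and STATs were all above the minimum and none of the 6 differed by 2-fold. STAT3, the gene next to STAT5A, was the highest, at a mean RPKM of 42.1 in HPB-ALL and 61.3 in KOPTK1. JAK2 had levels of 6.11 and 6.61, TYK2 at 30.8 and 32.8, STAT6 at 32.5 and 32.7 and STAT4, the lowest, at 2.14 and 3.33.

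Of 10 negative regulators, 8 differed by less than 2-fold. PTPRC, the phosphatase CD45, was the highest, at a mean RPKM of 102 in HPB-ALL and 109 in KOPTK1. PTPN2, a phosphatase that removes phosphate from JAK1 and STAT5 and is deleted in some T-ALL, stood at 20.2 and 18.7, and DNM2, a dynamin of receptor endocytosis, at 51.3 and 53.1. The inducible members diverged: SOCS2 was 2.13-fold higher in HPB-ALL (1.29 and 0.603), and SOCS3 2.29-fold higher in KOPTK1 (1.25 and 2.87).

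Of 9 other target and effector genes, 7 differed by less than 2-fold, among them the survival genes BCL2 (mean RPKM 8.37 in HPB-ALL and 7.57 in KOPTK1), BCL2L1 (23.7 and 22.9) and MCL1 (41.8 and 32.4). CCND3, a D-type cyclin, was the highest, at 51.5 and 61.4. OSM, a classical STAT5 target, was 2.48-fold higher in HPB-ALL (2.37 and 0.958), and CCND2, named after its values were seen, 3.93-fold higher in KOPTK1 (1.68 and 6.61). BCL6, with the 4 matches shown above, had a level of 1.23 and 1.92.

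**Figure D2:**
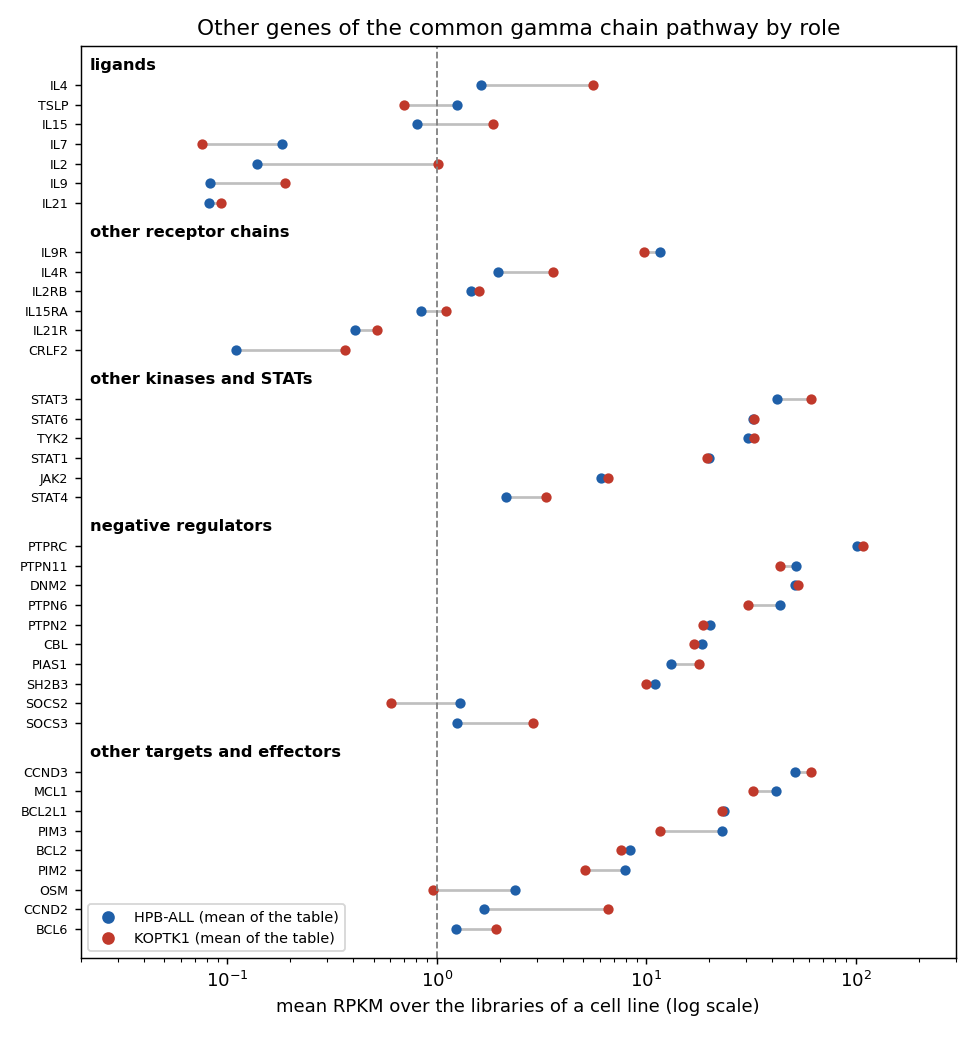
Mean RPKM (log scale) of the 38 further genes of common gamma chain signalling in HPB-ALL (blue) and KOPTK1 (red), grouped by role, with a dashed line at 1. Most ligands and most receptor chains lie near or below 1, with IL4 (1.62 and 5.60) the highest ligand. Kinases, STATs and phosphatases lie above 1 with points close together in both lines.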

How the data were processed

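RNA-Seq of 12 libraries from HPB-ALL and KOPTK1 cells was used. According to the submitters' processing notes, which give no roles, the authors used hg38, Trimmomatic 0.36, STAR 2.5.4b, Picard 2.18.7, featureCounts 1.6.2 and edgeR 3.22.3. The gene coordinates of the 10 genes overlapped their GRCh38 positions. The authors deposited 1 table per line with an average log2 CPM over its 6 libraries and the summed exon length of each gene. Mean RPKM was 2 to the power of that average, divided by the length in kilobases. It averages controls and SHQ1-depleted cells and includes the authors' prior count, which raises low values.

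The deposited tables also hold 12 library columns headed by numbers alone, which match no label and were not used, and the authors' own fold changes, F statistics, p-values and FDR, which were not used either. The tests planned between shRNA groups were therefore not run, and library totals are not reported. No batch is given. No test was made.

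Symbols were matched to 95.9% of identifiers. The genes and lists were chosen with earlier results of these data known. Of the further genes, those named crossed a mean RPKM of 1 between lines, differed by 4-fold or were highest or lowest of their role, with others added for their role after their values were seen. Steps used Python 3.11.15, numpy 2.4.6 and pandas 2.3.3 and were tested on simulated data.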

Additional observations from a re-analysis of the deposited data

How the results depend on the processing

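Depth and replicate spread limit every value, since none has an error here. At a minimum mean RPKM of 10 in place of 1, the number of the 10 genes reaching it was 4 for HPB-ALL and 5 for KOPTK1, where 9 and 8 had. At a minimum of 0.5 RPKM, 1 TPM or 1 CPM it was 9 in each line. The number of genes differing by 2-fold or more, 6 as deposited, was 4 after rescaling to TPM, where IL2RA and STAT5B fell under 2-fold, 6 after centring on the median, 5 with a minimum mean RPKM of 1 in at least 1 table and 6 after subtraction of the floor, an alternative chosen after the data were seen. The TPM and centring steps moved the median of all genes by -0.06 and -0.02 on the log2 scale. All 30 ratios of single genes under these 3 scalings kept their direction. For TPM and centring this was fixed in advance. Each shifts every gene by the same amount, which is smaller in size than the smallest ratio (-0.095 for IL2RG). Only subtraction of the floor moves genes by different amounts. Apart from IL2RA, no ratio moved by more than 0.06 (log2) under any of the 3. Without division by length, 10 of 20 positions in the orders of the genes were kept, and IL2RG lost the first place in KOPTK1 to STAT5A. The alternatives for the comparison of shRNA groups, among them leaving out each replicate, were not run. No paired analysis was possible because no column of a single library could be tied to a labelled sample.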

Other observations

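The genes around those that differed most were read after the values were seen. Within 250 kb of STAT5A, 25 genes had a mean RPKM of at least 1 in at least 1 line, and their log2 ratios of KOPTK1 over HPB-ALL ran from -1.06 to 3.50 with a median of 0.36. STAT3, 1380 bases away, was at 0.54 and RAB5C at 0.01, whereas CAVIN1, at a mean RPKM of 0.253 in HPB-ALL and 2.85 in KOPTK1, was at 3.50 and ATP6V0A1 (13.1 and 6.30) at -1.06. Of the 25, 3 were at least 2-fold higher in KOPTK1, namely CAVIN1, STAT5B and ENSG00000278829, which overlaps STAT5B on the same strand, and 2 in HPB-ALL, beside 8.1% and 3.81% of all genes that met this minimum.

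Within 250 kb of JAK3, 13 genes had a median log2 ratio of 0.07. FCHO1 stood at -0.04, while INSL3, 3211 bases away and low (0.309 and 1.36), was at 2.14 and IL12RB1, a chain of the interleukin-12 receptor (2.60 and 7.98), at 1.62. Near SOCS1, 6 genes ran from 0.11 to 1.19, the highest being the overlapping RMI2. Near IL7R, 3 genes met the minimum. LMBRD2 (9.73 and 6.66) was at -0.55, and UGT3A2 (0.440 and 3.06) was at 2.80, opposite in direction to IL7R. RNU7-130P (0.852 and 1.08) was at or near the floor in both lines, so its ratio of 0.34 is not interpreted. No cause of these values was tested.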
